A study of Mus musculus with 4 samples.

Results

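A set of 4 genes best known from the nervous system, Dcx, St8sia2, Ncam1 and Nrcam, was followed in myogenic cells of regenerating mouse muscle. They were chosen by their signals, and by the ratios between days, on these same arrays, so their values below are a description and carry no test. All probe sets annotated to one of the 4 symbols alone were read, each apart from the others. They numbered 13 of the 22690 probe sets in the table, or 13 of the 20380 probe sets annotated with 1 symbol, and stand for 4 of 12393 genes. Dcx had 4 probe sets, St8sia2 had 2, Ncam1 had 6 and Nrcam had 1.

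The cells came from C57BL/6 mice aged 8 to 12 weeks with a hind limb injury by cardiotoxin, a venom peptide that kills muscle fibres and spares the stem cells that rebuild them. No culture step lay between muscle and RNA, and the labels name SM/C-2.6, an antibody raised against muscle satellite cells. RNA from day 2, day 3, day 5 and day 14 after injury was hybridised to Affymetrix mouse 430A arrays, with 1 array for each day. All 4 samples had been injured, and no array of uninjured muscle was analysed here. How many animals gave each RNA is not stated in the labels.

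Doublecortin, the product of Dcx, binds and stabilises microtubules and is known from migrating immature neurons. St8sia2 encodes a polysialyltransferase of the Golgi that builds long chains of sialic acid, mostly on the adhesion molecule NCAM, and these chains weaken the contact between cells. Ncam1 encodes NCAM itself, which neurons, developing muscle and satellite cells carry. Nrcam belongs to the L1 family of adhesion molecules, which span the membrane, bind ankyrins inside the cell and take part in axon growth and in the assembly of nodes of Ranvier.

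The 4 genes had 4 different time courses. Dcx was below the floor on days 2 and 3, highest on day 5 and lower on day 14. St8sia2 was highest on day 3 and lowest on day 14. Ncam1 was lowest on day 2, and days 5 and 14 were its highest days. Nrcam was highest on day 2, lower on day 3 and below the floor from day 5 on. Signals are MAS5 intensities scaled to a common trimmed mean. The floor was set at 43.0, the pooled median of all scaled values, and values under it have no order. A ratio was called at 2-fold or more. Where 1 of the days compared lay at the floor, the fold is given as a minimum (at least N-fold), and where both did, the ratio was not measured. With 1 array a day there is no replicate spread, hence no test, SE or interval. As a technical yardstick only, the log2 ratios of different probe sets of 1 gene had a pooled SD of 0.36 (day 3 against day 2), 0.37 (day 5 against day 3) and 0.32 (day 14 against day 5).

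**Figure D1:**
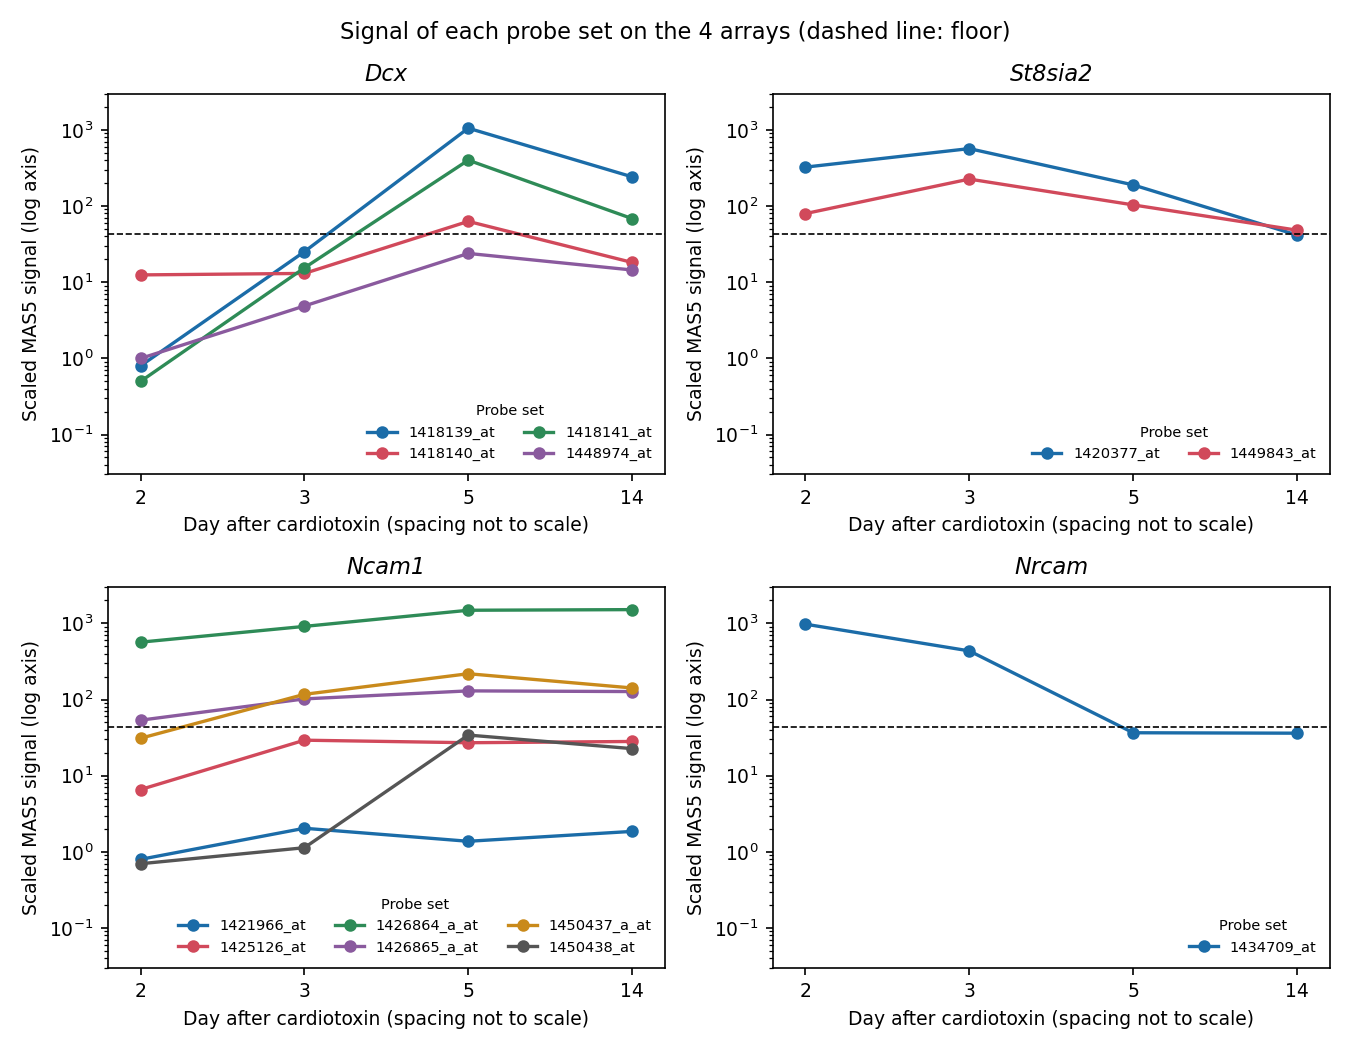
Scaled MAS5 signal (log axis) of each of the 13 probe sets on the array of each day after cardiotoxin, 1 panel per gene, with the floor of 43.0 as a dashed line. Each point is 1 array. Dcx peaks on day 5, St8sia2 on day 3, the upper Ncam1 probe set is near its top on days 5 and 14, and Nrcam is under the floor on days 5 and 14.

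The bases just before the annotated start of 3 of these genes are printed so that their composition and any E-boxes can be seen. They are RefSeq sequence of build GRCm38.p6, read 5′ to 3′ on the strand of the gene and ending at the base before the gene. E-boxes, the CANNTG motif that MyoD family factors bind, are in capitals.
Dcx, chrX:143933397-143933469, minus strand: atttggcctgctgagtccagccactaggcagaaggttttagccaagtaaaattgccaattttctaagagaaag
St8sia2, chr7:74013728-74013932, minus strand: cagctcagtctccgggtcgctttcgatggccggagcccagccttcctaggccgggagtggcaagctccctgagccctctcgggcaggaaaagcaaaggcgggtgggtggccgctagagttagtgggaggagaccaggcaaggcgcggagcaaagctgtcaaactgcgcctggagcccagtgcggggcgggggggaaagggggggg
Nrcam, chr12:44328635-44328785, plus strand: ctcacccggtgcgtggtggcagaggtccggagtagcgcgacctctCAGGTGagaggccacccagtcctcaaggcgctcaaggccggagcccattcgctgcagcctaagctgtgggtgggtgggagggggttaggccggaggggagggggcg
The Dcx stretch of 73 bases was 42.47% GC and held no CpG. The St8sia2 stretch of 205 bases was 67.8% GC with 13 CpG, and the Nrcam stretch of 151 bases was 69.54% GC with 10 CpG and a single E-box. Over whole windows of 300 bases (250 before a start and 50 after it), the 2 Dcx starts had 43.0% and 44.67% GC with 3 CpG each, St8sia2 had 68.67% GC with 20 CpG, and Nrcam had 74.0% GC with 37 CpG. The median of all 32851 windows in the table was 52.67% GC with 7 CpG. CANNTG was found once in the Nrcam window and not in the others, against 72.31% of all windows. Its form CAGCTG was in none of them, against 16.3% of all windows. TATAAA, searched on both strands, was found once in each Dcx window, against 13.62% of all windows. No match says only that these letters are not in this window.

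Dcx (chromosome X, 143855842 to 143933396, GRCm38.p6, gene ID 13193) passed the floor on days 5 and 14 only. Probe set 1418139_at read 0.797, 25.2, 1052 and 242 on days 2, 3, 5 and 14. Probe set 1418141_at read 0.498, 15.4, 399.8 and 68.3 on the same days. Both were under the floor on the early days and above it on days 5 and 14, with day 5 the higher of those. For 1418139_at the ratio of day 5 to day 3 was at least 24.5-fold (log2 4.61), and for 1418141_at at least 9.31-fold (log2 3.22). Day 14 was then 4.35-fold lower than day 5 in 1418139_at and 5.85-fold lower in 1418141_at (log2 -2.12 and -2.55).

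Of the other 2 Dcx probe sets, only 1418140_at passed the floor. 1418140_at read 12.5, 13.0, 62.8 and 18.2 on days 2, 3, 5 and 14, and was above the floor on day 5 alone. Its ratio of day 5 to day 3 was at least 1.46-fold and was not called. 1448974_at read 0.997, 4.87, 23.9 and 14.5, under the floor throughout, and counts as not measured. On day 14, 1418139_at and 1418141_at were still above the floor. Against day 3, day 14 was at least 5.62-fold higher in 1418139_at (log2 2.49, called) and at least 1.59-fold higher in 1418141_at (log2 0.67, not called). The same bounds hold against day 2, since both early days lay under the floor.

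St8sia2 (chromosome 7, 73939119 to 74013727, gene ID 20450) had its highest signal on day 3. Probe set 1420377_at read 324, 567, 189 and 41.6 on days 2, 3, 5 and 14. Probe set 1449843_at read 79.5, 226, 103 and 48.1 on the same days. Day 3 was highest and day 14 lowest in both. For day 3 against day 2 the probe sets straddled the 2-fold line, at 2.84-fold higher in 1449843_at (log2 1.51) and 1.75-fold higher in 1420377_at (log2 0.81).

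After day 3, St8sia2 was called lower in both probe sets at each step. Day 5 was 2.99-fold lower than day 3 in 1420377_at and 2.18-fold lower in 1449843_at (log2 -1.58 and -1.13). Day 14 was at least 4.41-fold lower than day 5 in 1420377_at and 2.15-fold lower in 1449843_at (log2 -2.14 and -1.10). In 1449843_at the first of these calls was lost with the values as deposited. The second was lost with the floor at the 60th percentile (log2 -0.36) and with a pseudocount of 16 (log2 -0.90). The enzyme's transcript read lowest on day 14, a day on which that of its main substrate, Ncam1, was near its top. Against day 3, day 14 of St8sia2 was at least 13.2-fold lower in 1420377_at and 4.69-fold lower in 1449843_at. Day 5 against day 2 left the probe sets on opposite sides of equality, at 1.71-fold lower in 1420377_at and 1.30-fold higher in 1449843_at, and neither was called. This depended on the scaling. With a common median both were lower (log2 -1.51, called, and -0.36), and with quantile normalization too (log2 -0.87 and -0.05, not called). Day 14 against day 2 was called in 1420377_at, at least 7.54-fold lower, and not in 1449843_at, 1.65-fold lower. The latter became called with a common median (log2 -1.43) and with quantile normalization (log2 -1.17).

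Ncam1 (chromosome 9, 49502129 to 49799393, gene ID 17967) was above the floor on every day in 2 of its 6 probe sets and from day 3 on in another. Probe set 1426864_a_at read 566, 912, 1485 and 1514 on days 2, 3, 5 and 14. Probe set 1426865_a_at read 53.5, 102, 129.8 and 127, and 1450437_a_at read 31.0, 117, 218 and 142. Day 2 was lowest in all 3, and days 5 and 14 were the highest pair. Names ending in _a_at mark probe sets that match several transcripts of 1 gene, so isoforms of NCAM are not told apart by them.

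No single step of Ncam1 after day 3 reached 2-fold after scaling. Day 3 against day 2 was 1.61-fold higher in 1426864_a_at, 1.90-fold higher in 1426865_a_at and at least 2.72-fold higher in 1450437_a_at. Only the last was called, and not with the floor at the 60th percentile (log2 0.54). Day 5 against day 3 was 1.63-fold, 1.27-fold and 1.86-fold higher in that order of probe sets. With the values as deposited, 1426864_a_at and 1450437_a_at were called there, at log2 1.01 and 1.20. Day 14 against day 5 had log2 ratios of 0.03, -0.03 and -0.62. Only the wider spans passed 2-fold in all 3. Day 5 against day 2 was 2.62-fold, 2.43-fold and at least 5.08-fold higher, and day 14 against day 2 was 2.67-fold, 2.38-fold and at least 3.30-fold higher. The last of these was lost with the floor at the 60th percentile (log2 0.81). With each array scaled to a common median, 1426864_a_at and 1426865_a_at were no longer called in either span, at log2 0.66 and 0.54 for day 5 and 0.58 and 0.41 for day 14. Quantile normalization and the higher floor also left 1426865_a_at uncalled in both spans.

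The other 3 Ncam1 probe sets stayed under the floor on all 4 arrays and were not measured. 1421966_at lay between 0.797 and 2.04. 1425126_at lay between 6.58 and 29.2, and 1450438_at between 0.698 and 34.1. Where each probe set lies within the transcripts was not analysed here.

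Nrcam (chromosome 12, 44328786 to 44605194, gene ID 319504) had its highest signal on day 2. Its 1 probe set, 1434709_at, read 975, 435, 36.6 and 36.1 on days 2, 3, 5 and 14. The early days lay above the floor and the later ones under it. Day 3 was 2.24-fold lower than day 2 (log2 -1.17). Day 5 was at least 10.1-fold lower than day 3 (log2 -3.34). Day 5 was at least 22.7-fold lower than day 2, and the same bound holds for day 14. Days 5 and 14 could not be compared with each other. No other probe set of this gene was there to check the course.

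Counted over the 13 probe sets, 2 were higher and 1 lower on day 3 against day 2, 3 were measured and not called, and 7 were not measured. Of all probe sets measured in that comparison, 6.16% were called higher and 2.02% lower. On day 5 against day 3, 2 were higher and 3 lower, 4 were not called and 4 not measured, beside 10.7% higher and 5.83% lower over all. On day 14 against day 5, none was higher and 4 were lower, 4 were not called and 5 not measured, beside 4.57% and 3.08%. The choice of the genes used these contrasts, so nothing is read from the difference. In pairs of days further apart, day 14 against day 2 had 4 higher and 2 lower (21.2% and 14.5% over all), day 5 against day 2 had 5 higher and 1 lower (18.2% and 11.3%), and day 14 against day 3 had 1 higher and 3 lower (15.3% and 11.3%). In the labels, days 2 and 5 are worded alike and so are days 3 and 14, so the last 2 pairs lie within 1 wording. Comparisons that share a day share its array.

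**Figure D2:**
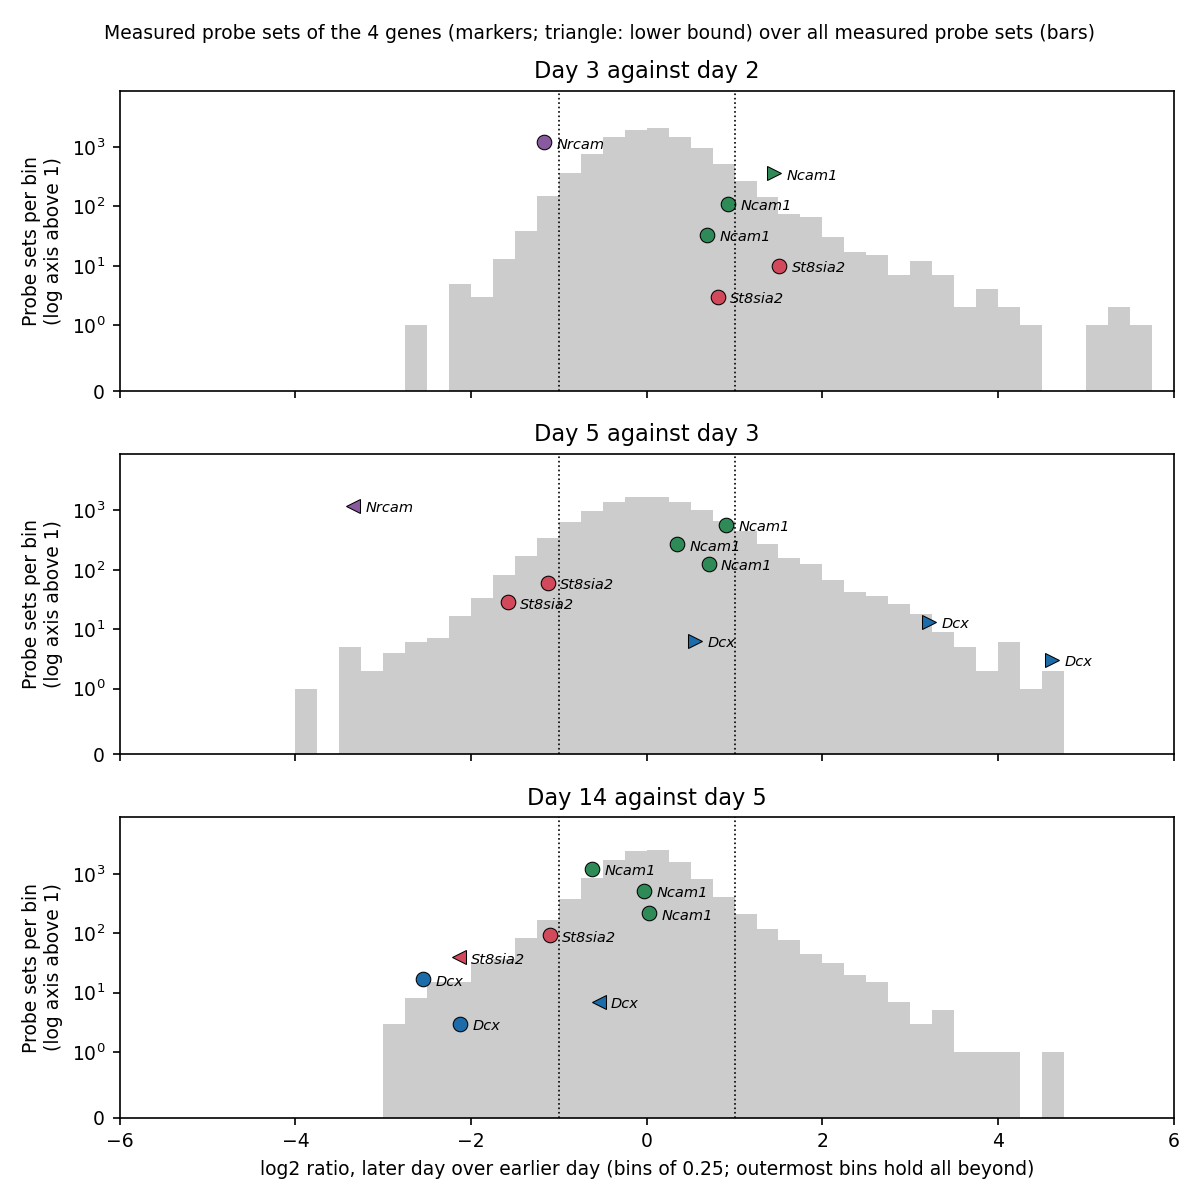
Log2 ratio of the later over the earlier day for the measured probe sets of the 4 genes (coloured markers; a triangle is a lower bound; the height of a marker has no meaning) over the number of all measured probe sets per bin of the same ratio (grey bars, log axis above 1). Dotted lines mark 2-fold. Dcx and Nrcam lie far out on opposite sides on day 5 against day 3.

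Just inside the 2-fold line were St8sia2 1449843_at on day 14 against day 5 (2.15-fold lower) and on day 5 against day 3 (2.18-fold lower), and Nrcam on day 3 against day 2 (2.24-fold lower). Just outside it were Ncam1 1426865_a_at on day 3 against day 2 (1.90-fold higher), Ncam1 1450437_a_at on day 5 against day 3 (1.86-fold higher) and St8sia2 1420377_at on day 3 against day 2 (1.75-fold higher).

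Polysialic acid needs more than the transferase. Its sugar is made by Gne, Nans and Nanp, activated by Cmas and carried into the Golgi by Slc35a1, and sialidases such as Neu1 take sialic acid off. Of a list of 15 such genes, 13 were on the array and 8 passed the floor on at least 1 day. St8sia4, the other enzyme that makes polysialic acid on NCAM, read 7.18, 12.4, 10.6 and 40.2 on days 2, 3, 5 and 14, under the floor on every array. Nans, sialic acid synthase, read 481, 625, 562 and 278, and Cmas read 606, 587, 486 and 293. Both were lowest on day 14. Nans was 2.02-fold lower on day 14 than on day 5 and was called, though not with a pseudocount of 16 (log2 -0.98). Slc35a1 read 449, 304, 302 and 354, with little between the last 3 days.

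Read by the probe set of highest mean signal of each gene, none of the 6 measured genes of that list was called on day 3 against day 2. Over all measured genes, 6.70% were called higher and 1.80% lower there. On day 5 against day 3, 1 of 7 was lower, St8sia2 itself, beside 11.6% higher and 5.97% lower over all genes. On day 14 against day 5, 2 of 8 were lower, St8sia2 and Nans, beside 4.81% and 3.10%. The list's median log2 ratios were -0.14, -0.01 and 0.09, against 0.06, 0.06 and 0.01 over all measured genes, and each takes the other sign under some of the alternative settings.

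The second list held 35 adhesion relatives and partners of NCAM and NrCAM, Ncam1 and Nrcam among them. On the array were 31, and 21 passed the floor on at least 1 day. The nearest relatives were mostly under the floor. Ncam2, the second NCAM gene, read between 3.09 and 10.9, and Chl1 of the L1 family between 0.793 and 5.78. L1cam, the founder of that family, read 37.6, 38.5, 36.4 and 72.3 and passed the floor on day 14 alone. The contactins Cntn1, Cntn2, Cntn3, Cntn4 and Cntn6, which bind L1 family proteins at the surface, were under the floor on all arrays.

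Signalling partners were present. Fyn, a Src family kinase that acts downstream of NCAM, read 73.0, 121, 293 and 358 on days 2, 3, 5 and 14, and Fgfr1, a growth factor receptor that NCAM can engage, read 79.8, 134, 384 and 967. Prnp, the prion protein, a surface partner of NCAM, read 174, 378, 794 and 1013. In these probe sets, those of highest mean signal, all were lowest on day 2 and highest on day 14. The other Fyn probe set was lower on day 14 than on day 5 (log2 -0.51). Fyn was 2.43-fold and Fgfr1 2.87-fold higher on day 5 than on day 3, and Fgfr1 was 2.52-fold higher on day 14 than on day 5. The other Fgfr1 probe set did not reach 2-fold at either step (log2 0.88 and 0.76). Prnp was 2.18-fold higher on day 3 than on day 2, a call kept in 4 of 8 alternatives and lost under all other scalings (log2 0.62 to 0.99).

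Ankyrins link adhesion molecules to the spectrin skeleton. Ank1, in its probe set of highest mean signal, read 156, 478, 604 and 766, also lowest on day 2 and highest on day 14. There it was 3.07-fold higher on day 3 than on day 2, but its probe sets ran from log2 0.675 to 1.62. For day 5 against day 2 they ran from -0.23 to 1.96, and for day 14 against day 3 from -0.34 to 0.68. Not all of them had this course. Ank3 read 566, 469, 307 and 1692, lowest on day 5. Its day 14 was 5.51-fold above its day 5, with log2 ratios from 0.77 to 2.46 over its 3 probe sets. Sema3a, a guidance cue, was 2.89-fold higher on day 5 than on day 3, at 192 on day 5, against 66.4 on day 3. Sema3b was 2.43-fold higher on day 14 than on day 5, at 117 on day 14, against 48.3 on day 5, a call lost with the floor at the 60th percentile (log2 0.54).

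Over the list, 2 of 19 measured genes were higher and 1 lower (Nrcam) on day 3 against day 2. On day 5 against day 3, 5 of 20 were higher and 1 lower, again Nrcam. On day 14 against day 5, 3 of 20 were higher and none lower. The shares over all genes are those given above. The median log2 ratios were 0.40, 0.33 and 0.18, and the first was -0.11 with each array scaled to a common median.

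The third list held 34 microtubule genes, Dcx among them. On the array were 30, and 22 passed the floor on at least 1 day. Dclk1, a kinase with doublecortin domains and the closest relative of Dcx on the list, read 113, 1122, 547 and 160 on days 2, 3, 5 and 14. It was highest on day 3, when Dcx still lay under the floor. Day 3 was 9.97-fold above day 2, day 5 was 2.05-fold below day 3 and day 14 was 3.43-fold below day 5. The call on day 5 against day 3 was lost with the values as deposited and with quantile normalization. Dclk1 had 6 probe sets, whose log2 ratios of day 3 to day 2 ran from 0.37 to 3.32. Those of day 5 to day 3 ran from -1.04 to -0.32, and those of day 14 to day 5 from -1.78 to -0.25.

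Tubulin genes split by day. Tubb2a and Tubb2b, which encode beta-tubulins, were 2.81-fold and 2.69-fold higher on day 3 than on day 2. The Tubb2a probe set ends in _s_at, a mark of probes that may also match related genes. Neither tubulin was called with each array scaled to a common median (log2 0.99 and 0.93). Tubb3, the beta-tubulin used as a marker of neurons, read 64.2, 130, 49.1 and 2.54 on days 2, 3, 5 and 14, and its day 5 was 2.66-fold below its day 3, or log2 -0.69 and not called with the floor at the 60th percentile. Tuba4a read 5760, 5106, 817 and 1089, and its day 5 was 6.25-fold below its day 3, with log2 ratios from -2.88 to -0.43 over 3 probe sets.

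Among microtubule-binding proteins, Map1b read 172, 403, 166 and 124 and was 2.42-fold lower on day 5 than on day 3. This call was just lost with the values as deposited (log2 -0.97), and the measured Map1b probe sets ran from log2 -1.28 to -0.42. Mapre2, which tracks growing microtubule ends, was 2.20-fold higher on day 14 than on day 5, at 929 on day 14, against 422 on day 5. Its measured probe sets ran from log2 0.15 to 1.14 at that step. Pafah1b3, a catalytic subunit of the complex that also holds Lis1, was 2.58-fold lower on day 14 than on day 5, at 85.9 on day 14, against 222 on day 5. Stmn2, Map2 and Cdk5r2, known from neurons, lay under the floor on all arrays.

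Of this list, 5 of 19 measured genes were higher and none lower on day 3 against day 2. On day 5 against day 3, 3 of 21 were higher, Dcx among them, and 4 lower. On day 14 against day 5, 2 of 22 were higher and 3 lower, Dcx among these. Over all genes, 6.70%, 11.6% and 4.81% were higher and 1.80%, 5.97% and 3.10% lower at these steps. The median log2 ratios were 0.55, -0.24 and -0.16, and the second was 0.06 with the values as deposited.

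**Figure D3:**
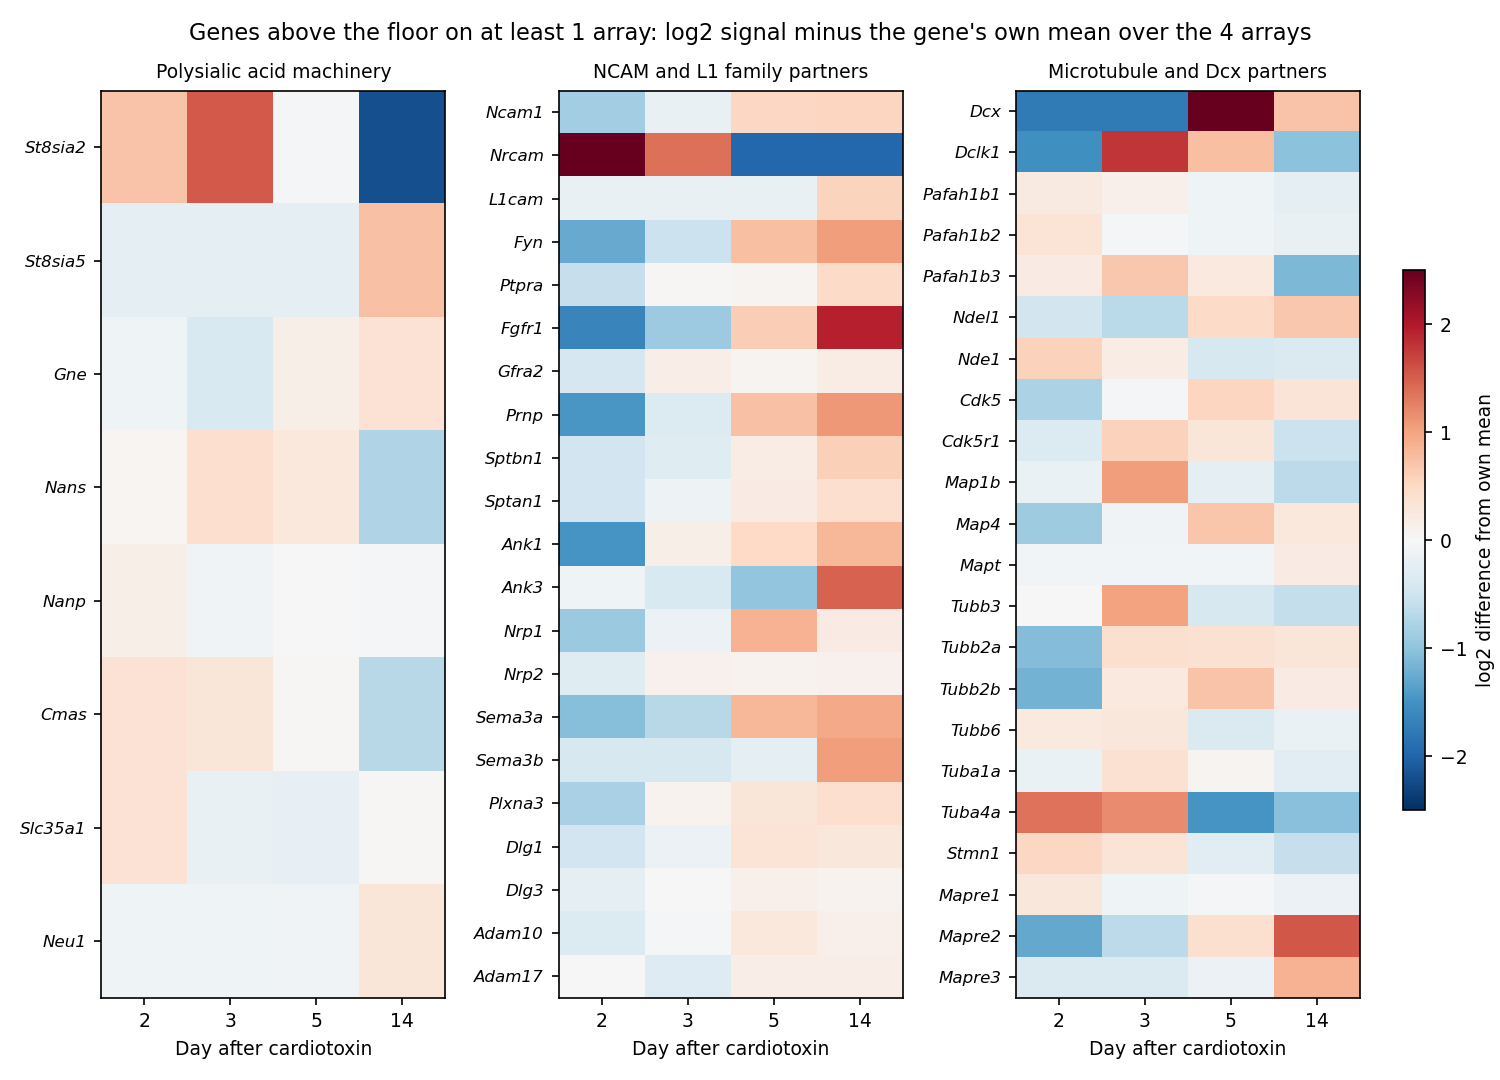
Log2 signal minus the gene's own mean over the 4 arrays (colour, red above and blue below, limits at 2.5 on either side) for the genes of 3 lists that passed the floor on at least 1 day, with day after cardiotoxin along the foot. The row of Dcx is red on day 5, the row of Dclk1 on day 3 and the row of Nrcam on days 2 and 3.

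REST is a repressor that keeps many neuronal genes silent outside the nervous system. Rest read 178, 288, 302 and 218 on days 2, 3, 5 and 14. Of the 11 genes of its corepressor complex on the list, 10 were on the array, and none of the 8, 8 and 9 measured was called at any of the 3 steps. The median log2 ratios were 0.37, -0.28 and -0.16. The first was as low as -0.15 and the second as high as 0.03 under the alternative settings. With the values as deposited, 1 of 8 was called higher on day 5 against day 3. Over the wider span, Kdm1a was 2.67-fold higher on day 5 than on day 2, a call lost with a common median. Its other probe set was at log2 0.44 there.

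Markers of nerve cells were looked at because the 4 genes are known from them. In bulk samples, fewer cells of a type and less RNA per cell cannot be told apart. Of 13 neuron markers on the array, 12 lay under the floor on every day, among them Elavl3, Elavl4, Snap25, Rbfox3 and Gap43. The exception was Tubb3. The summed signal of the list was 154, 224, 173 and 152 on days 2, 3, 5 and 14. Beside Tubb3, which was above the floor on days 2, 3 and 5, these sums hold only unmeasured values. Of 8 neural progenitor markers, Sox1, Sox2 and Pax6 were under the floor throughout, and the only one above it was Nes, nestin, which myoblasts carry too, at 440, 1448, 1057 and 319 on days 2, 3, 5 and 14.

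Of 8 Schwann cell and glial markers, 5 passed the floor on some day, and the summed signal was 339, 696, 1369 and 3308. S100b, Gfap and Foxd3 were under the floor on all arrays, and Sox10 passed it on day 3 alone, at 46.3. Pmp22, a myelin protein that fibroblasts also express, was the highest single signal of the list on each day, at 197, 282, 1064 and 2972. Its highest day was day 14. Ngfr, a neurotrophin receptor, was above the floor on every day, at 69.2, 56.1, 138 and 122, highest on day 5 as Dcx was. Mbp passed the floor on day 14 alone, at 73.4. Erbb3, a neuregulin receptor of Schwann cells, read 21.3, 255, 77.7 and 58.2, highest on day 3 as St8sia2 was. Whether Schwann or glial cells had a part in the Dcx and St8sia2 signals was not tested.

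**Figure D4:**
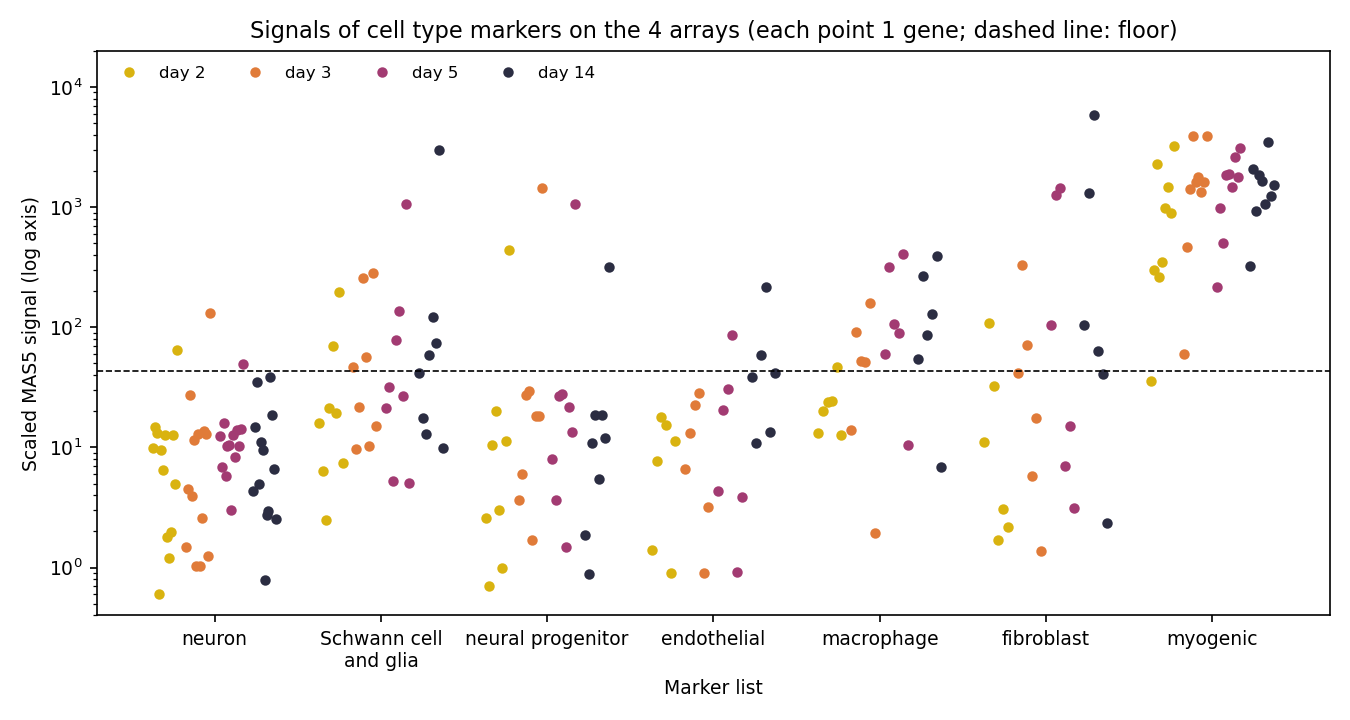
Scaled MAS5 signal (log axis) of each marker gene on the array (points), by marker list and day after cardiotoxin (colours, in the order 2, 3, 5 and 14), with the floor of 43.0 dashed. Neuron markers lie under the floor except Tubb3, and myogenic markers lie almost all above it. More fibroblast and macrophage markers lie above it on days 5 and 14 than on day 2.

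Myogenic markers were present on all arrays, as the label of the cells has it, and markers of other cell types were present beside them. Of 9 myogenic markers, 8 were above the floor on day 2 and 9 on each later day. Pax7, the factor of satellite cells, read 35.7, 59.4, 217 and 323, Myod1 2272, 1405, 500.2 and 935, and Myog, the factor of differentiation, 261, 3876, 1839 and 1835. Cdh15 read 350.0, 1606, 1884 and 1653, and the proliferation marker Mki67 read 1720, 1631, 725 and 737. Nrcam and Mki67 were both higher on days 2 and 3 than on the later days, and the part of cell division in the Nrcam signal was not tested.

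Fibroblast markers passed the floor in 4 of 6 genes, with sums of 158, 467, 2817 and 7389, Dpt alone reaching 1430 on day 5 and 5877 on day 14. Macrophage markers passed it in 5 of 6, with sums of 141, 372, 987 and 934, and Ptprc read 13.1, 14.1, 59.7 and 54.5. Endothelial markers passed it in 2 of 6, with sums of 54.6, 74.6, 146 and 378, and Pecam1 and Cdh5 stayed under it. All endothelial markers were under the floor on days 2 and 3, so those sums hold only unmeasured values. Tek was the highest of them later, at 85.5 on day 5 and 214 on day 14. The fibroblast and macrophage sums were higher on day 5 than on day 3, as Dcx and Ncam1 were. On day 14 the macrophage sum was 934, against 987 on day 5, and none of its 5 measured markers was called at that step. The fibroblast and endothelial sums were higher on day 14 than on day 5. The part of these cell types in the result was not tested. The 3′ to 5′ signal ratio, a measure of RNA length, was 2.17, 1.88, 2.87 and 2.84 on days 2, 3, 5 and 14 for Gapdh, higher on the later days, and 1.80, 2.20, 2.19 and 2.14 for Actb, lowest on day 2. Its part was not tested either.

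For each of the 4 genes, the genes with the most similar course were sought among 7928 others that passed the floor on at least 1 day. Likeness was the root mean square difference of log2 profiles, each centred on its own mean, over 4 arrays. With 4 points a profile, close matches are easily had. Dcx was nearest to Slc40a1, an iron exporter (0.44), Parm1 (0.46) and the glypican Gpc3 (0.55). Slc40a1 read 10.5, 52.6, 609 and 290 on days 2, 3, 5 and 14, Parm1 17.6, 34.9, 738 and 112, and Gpc3 5.98, 22.6, 419 and 155. All had day 5 as their highest day and day 14 next.

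St8sia2 was nearest to the galectin Lgals3 (0.28), Baiap2l1 (0.32) and Limd2 (0.36). Lgals3 read 3584, 3931, 1816 and 481, highest on day 3 and lowest on day 14. Ncam1 had the closest matches, the diacylglycerol kinase Dgka, the kinesin adaptor Trak1 and Glg1, at 0.02, 0.02 and 0.03. Dgka read 46.9, 77.7, 124 and 128. Nrcam was nearest to the keratin Krt18 (0.53), Trip13, a factor of the spindle checkpoint (0.54), and the phosphatase Mtm1 (0.58). Krt18 read 453, 484, 48.6 and 15.6, high on days 2 and 3 only. Trip13 read 2351, 1283, 283 and 159, and Mtm1 365, 283, 37.2 and 14.6.

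**Figure D5:**
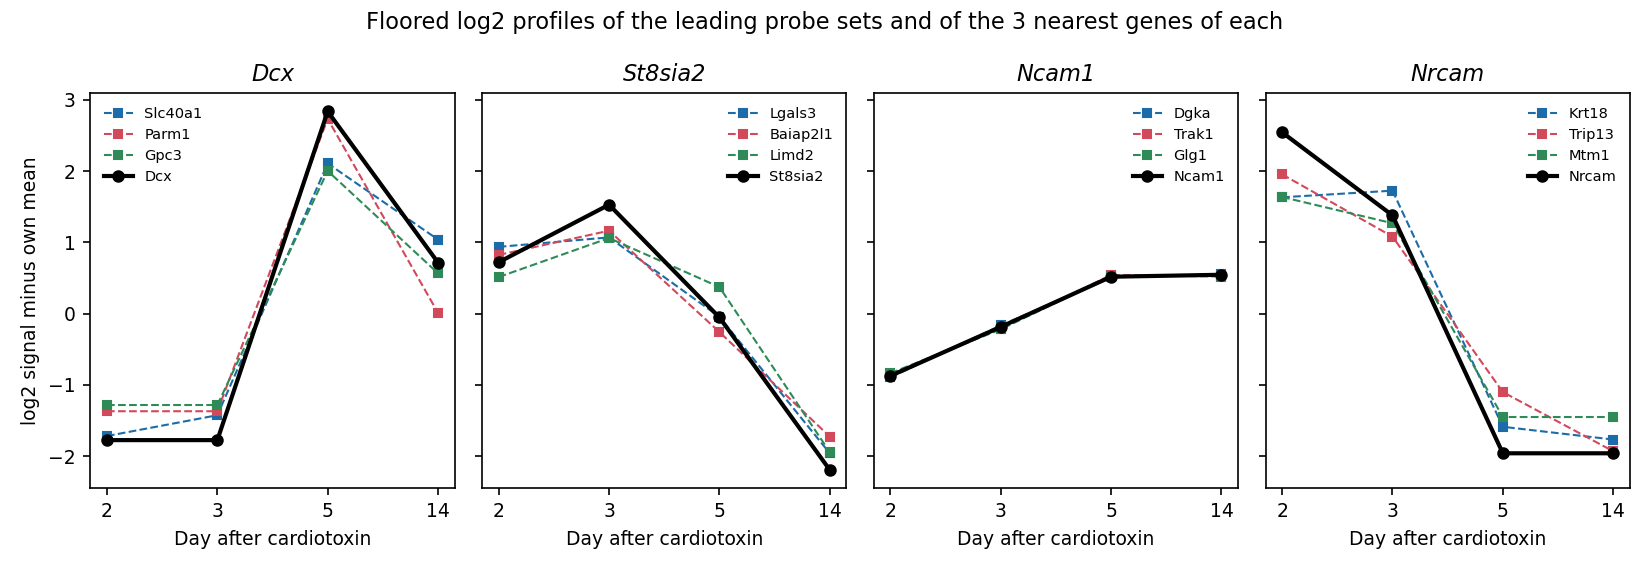
Log2 signal, floored and centred on its own mean over the 4 arrays, of the probe set of highest mean signal of each of the 4 genes (black) and of the 3 genes with the nearest profile (coloured, dashed), by day after cardiotoxin. The curves of Ncam1 and its 3 nearest genes lie on each other (0.02 to 0.03), while those of Nrcam are 0.53 to 0.58 apart.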

How the data were processed

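RNA of 4 samples, 1 per day after injury, was labelled with a small-sample assay and read on Affymetrix mouse 430A arrays, per the labels' protocols. The deposited values are signal intensities, 1 per probe set, made with MAS5 per the submitters' processing notes. Its settings are not stated in the labels. The number of arrays limits precision, and there is no count depth.

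All arrays were brought to a common 2% trimmed mean, with factors from 0.917 to 1.13. Values under 43.0, the pooled median, were set to that floor and log2 ratios of days were taken, called at 2-fold. On an array, 45.0% to 53.5% of probe sets exceeded it. The platform annotation gave 20380 probe sets 1 symbol, and 691 with several and 1619 not named or controls were left out. Gene IDs matched RefSeq (GRCm38.p6) for 12369 of 12393 genes. A list gene was read by its probe set of highest mean log2 signal. All probe sets of the 4 genes were named, with up to 3 called genes of largest log2 ratio per list and step, 3 genes of nearest profile, and fixed markers. Other genes of the lists, such as Cmas, Slc35a1, Ncam2, L1cam, St8sia4 and Rest, were added after their values were seen. The genes and lists were chosen with earlier results of these data known. The calling step was tested on simulated data. Alternatives were 3 other scalings, 2 other floors, a pseudocount of 16 and calls at 1.5-fold and 3-fold. Python 3.11.15, pandas 2.3.3 and numpy 2.4.6 were used.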

Additional observations from a re-analysis of the deposited data

How the results depend on the processing

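Over 8 alternatives, 378 log2 ratios of single probe sets were recomputed: 329 kept their side of the call, 23 were no longer called, 26 became called, and no called ratio turned its sign. The calls of Dcx 1418139_at, of 1418141_at on day 5 against the days before and on day 14 against day 5, and of Nrcam on day 5 against day 3 held in all 8, with log2 3.70 to 5.39 for Dcx 1418139_at and -3.57 to -2.43 for Nrcam on day 5 against day 3. Apart from calls lost only through the 3-fold line, which are not listed, calls lost for St8sia2, Ncam1 and genes of the lists are given beside their values.

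With the floor at the 25th percentile (9.97), 5 of the probe sets were called on day 3 against day 2, against 3 above, 8 on day 5 against day 3, against 5, and 10 on day 5 against day 2, against 6. On day 3 against day 2, a pseudocount of 16 without floor called 5, calls at 1.5-fold 6 and calls at 3-fold 0. At 3-fold, 3 were called on day 5 against day 3. There is no p-value beside the 0.

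Scaling moved all probe sets. Of all calls, those higher made up 75.3% on day 3 against day 2, 64.7% on day 5 against day 3 and 59.7% on day 14 against day 5. With the values as deposited these were 49.5%, 86.7% and 49.2% (median log2 shifted by -0.18, 0.27 and -0.09). With a common median they were 18.3%, 39.7% and 47.7% (shifts of -0.46, -0.22 and -0.11), and quantile normalization gave 65.2%, 54.9% and 56.3%. For day 14 against day 2, day 5 against day 2 and day 14 against day 3, 59.3%, 61.7% and 57.6% were higher. A common median gave 22.1%, 21.5% and 33.7% (shifts of -0.75, -0.65 and -0.31), quantile normalization 48.1%, 49.5% and 50.1% (shifts of -0.23, -0.20 and -0.13), and the deposited values 60.9%, 69.6% and 72.2%. Ncam1, whose ratios are small, is read against these shifts.

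No paired analysis was possible because each day has 1 array.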
